A study of Homo sapiens with 2 samples.

Results

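Keratin genes were taken as the protein-coding RefSeq genes whose symbol is KRT followed by digits and at most 1 letter, which leaves out the keratin-associated protein genes. This gave 55 genes among 20037 protein-coding genes. Of these, 28 lie in the type I cluster on chromosome 17 and 27 on chromosome 12, where KRT18, a type I gene, adjoins the 26 type II genes. The ChIP-seq experiment had 1 anti-Flag immunoprecipitate (IP) and 1 input library, both from A549-shETV4 cells, in which ETV4 was knocked down by shRNA and Flag-ETV4 was expressed again by transfection. A549 is a human non-small cell lung cancer line. There was no replicate and no library without Flag-ETV4, so no test was made. The sample labels and the methods name different makers of the Flag antibody. Peaks do not measure expression, so the epithelial label of the cells was not checked against keratin expression.

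Keratins are the intermediate filament proteins of epithelial cells. A filament needs equal parts of an acidic type I and a basic type II keratin, so the genes are expressed in pairs that mark the kind of epithelium: KRT8 with KRT18 and KRT7 with KRT19 in simple epithelia such as the lung and its adenocarcinomas, KRT5 with KRT14 in basal cells, KRT1 with KRT10 in the upper epidermis, and the remainder mainly in mucosa, hair follicles and hair shafts. ETV4 is a PEA3-group ETS factor, and ETS proteins recognise DNA around a GGAA core.

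Each peak was linked to a keratin gene when its interval lay within 10 kb of the gene span, that is, of the outer ends of all its transcripts. The list held 54389 peaks in all, and 71 of them were linked to keratin genes in this way. They carried the fold enrichment over the control level that the authors' peak caller gave, and from fold and p-value the number of fragments piled up at the summit was computed. The fold of these 71 peaks ranged from 2.74 to 270 with a median of 9.38, against 9.63 over all peaks, and the summit pileup from 7 to 615 fragments with a median of 23, against 26. As peaks went, those at keratin genes were therefore of ordinary height, apart from a few described below.

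The peak with the highest fold at any keratin gene covered the start of KRT10-AS1, a lncRNA that begins inside KRT10 and runs in the opposite direction. The 250 bases before that start are shown first because the summit lies within them. KRT8 and KRT71 are shown because the 250 bases before their start in the RefSeq promoter table were partly covered by a peak. KRT5 is shown because no peak lay within 10 kb of it. All are from RefSeq on GRCh38.p14, 5′ to 3′ on the strand of the named gene, with each GGAA, or TTCC for the other strand, in capitals.
KRT10-AS1, chr17:40818895-40819144, plus strand: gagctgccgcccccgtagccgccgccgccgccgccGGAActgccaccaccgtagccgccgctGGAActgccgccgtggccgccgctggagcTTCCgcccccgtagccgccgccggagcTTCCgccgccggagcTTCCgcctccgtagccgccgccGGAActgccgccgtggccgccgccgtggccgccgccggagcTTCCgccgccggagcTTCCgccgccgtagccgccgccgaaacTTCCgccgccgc
KRT8, chr12:52926470-52926719, minus strand: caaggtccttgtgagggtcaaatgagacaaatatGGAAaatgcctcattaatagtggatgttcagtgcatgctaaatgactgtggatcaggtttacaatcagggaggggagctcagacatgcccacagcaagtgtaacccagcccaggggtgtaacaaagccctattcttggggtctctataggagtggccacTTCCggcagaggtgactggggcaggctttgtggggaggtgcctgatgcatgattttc
KRT71, chr12:52553146-52553395, minus strand: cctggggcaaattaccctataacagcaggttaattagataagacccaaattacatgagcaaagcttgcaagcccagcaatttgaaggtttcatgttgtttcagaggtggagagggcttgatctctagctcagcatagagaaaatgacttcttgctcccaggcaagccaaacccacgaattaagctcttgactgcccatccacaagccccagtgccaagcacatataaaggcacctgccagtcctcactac
KRT5, chr12:52520395-52520644, minus strand: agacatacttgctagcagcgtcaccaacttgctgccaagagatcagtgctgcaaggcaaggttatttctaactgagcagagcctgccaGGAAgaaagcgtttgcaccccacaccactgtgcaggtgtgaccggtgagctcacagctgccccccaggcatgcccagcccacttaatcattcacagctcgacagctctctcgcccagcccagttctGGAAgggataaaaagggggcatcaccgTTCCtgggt

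The KRT10-AS1 sequence was an array of short repeats, in which the 9-base word ccgccgccg occurred 13 times, counting overlaps. It held 9 GGAA cores on both strands together, and 2 of these were part of CCGGAA, the longer form read on either strand. The whole of it lay inside the peak, and the summit was its base 97. In the KRT8 sequence, 86 bases lay inside a peak. The sequence had 2 GGAA cores, of which 1 was in CCGGAA. For KRT71 the overlap was 116 bases, with 0 GGAA cores, while KRT5 had 3 cores and no peak. The summits of the KRT8 and KRT71 peaks lay outside the sequences shown, so most of these peaks was not read.

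Across keratin genes, the windows of the promoter table (250 bases before to 50 after a start) covered 34 of the 55 genes with 38 windows. GGAA on either strand was found in 92.1% of them, against 95.5% of all 35116 windows, and CCGGAA, which contains GGAA, in 7.89% against 17.2%. The AP-1 motif TGANTCA, read on both strands, was in 0 of the 38 windows and in 7.71% of all windows. The table gives KRT10-AS1 2 overlapping windows. The one that begins with the sequence shown held 10 GGAA cores and 3 CCGGAA, and as many or more were present in 0.738% and 0.985% of all windows, respectively. The other held 11 GGAA cores and 2 CCGGAA, with as many or more in 0.345% and 4.23% of all windows. The windows of KRT10 and KRT9 held no GGAA, but these starts were 3175 bp and 3996 bp from the peaks of these genes, and the sequence under the KRT9 peak was not read. These matches describe letters in a window and not sites.

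Fewer keratin genes than other genes had an ETV4 peak nearby. Among them, 35 of 55 (63.6%) had one within 10 kb, against 81.6% of all protein-coding genes. Keratin genes are short, with a median span of 6.43 kb against 24.1 kb, but among genes that span 3 to 15 kb the figures were 60.4% for the 48 keratins and 75.5% for all. A peak of fold 10 or more was within 10 kb of 22 keratin genes (40.0%), against 65.4% of all genes. A peak overlapped the span of 18 keratin genes (32.7%), against 72.0% of all genes. Because neighbouring genes are close, 22 of the 71 peaks were within 10 kb of 2 keratin genes and counted for both. Genes are thus not independent, and no interval is given for these shares.

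At gene starts, only part of the family could be examined. The promoter table held no start for KRT7, KRT18 and KRT19, nor for KRT1, KRT6A, KRT6B, KRT6C, KRT13, KRT14 to KRT17, KRT23, KRT72, KRT77, KRT78, KRT80, KRT81, KRT83, KRT86 and KRT222, and all those it held were on the minus strand. Among the 34 keratin genes with a start in the table, 4 (11.8%) had a peak within 1 kb of it, namely KRT8, KRT40, KRT71 and KRT74, against 64.4% of protein-coding genes with a start in that table. KRT8 was the only one of these whose start lay inside the peak, which had a fold of 22.5. The peak near KRT71, a keratin of the inner root sheath, began 135 bp from the start and had a fold of 10.9, with its summit 325 bp upstream. For KRT40, a hair keratin, the fold was 4.38 and the pileup 9 fragments, and for KRT74, another inner root sheath keratin, 2.98 and 7 fragments. The last 2 are near the lower limit of the list.

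The clusters on chromosomes 12 and 17 differed. Of the 26 type II genes, 21 (80.8%) had a peak within 10 kb, close to the share over all genes, whereas 14 of the 29 type I genes did (48.3%), KRT18 included. Overlap of the gene span gave 46.2% for type II and 20.7% for type I. Between the outer ends of KRT80 and KRT18, 783.9 kb of chromosome 12 held 61 peaks, or 77.8 per Mb, which is 3.61 times the density of the whole chromosome, 21.6 per Mb. From KRT222 to KRT17, 969.9 kb of chromosome 17 held 36 peaks, or 37.1 per Mb, against 33.1 per Mb for that chromosome. Chromosomes 1 to 22 and X together had 18.0 per Mb. None of these densities was adjusted for how many genes a region holds.

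**Figure D1:**
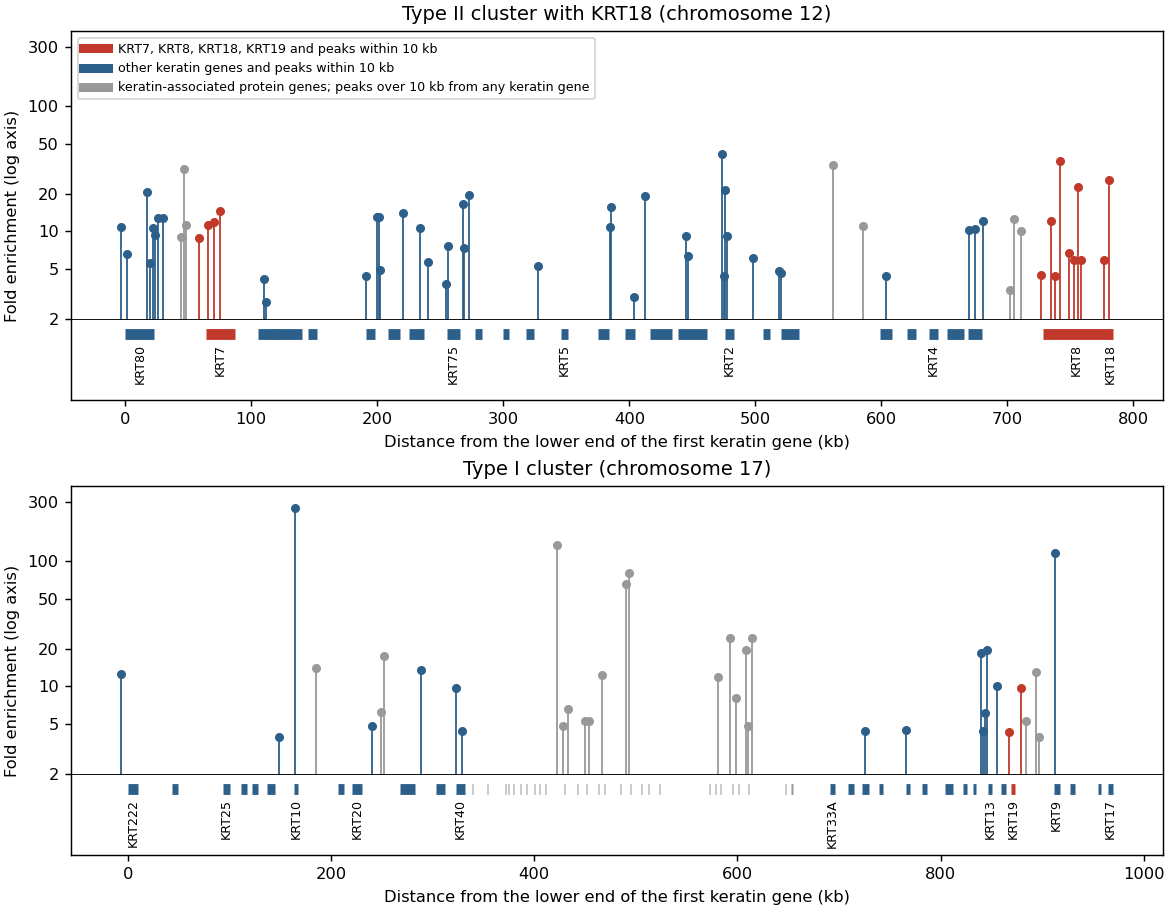
Peaks along the keratin cluster of chromosome 12 (upper panel) and of chromosome 17 (lower panel), with the distance from the lower end of the first keratin gene in kb on the x axis and fold enrichment on a logarithmic y axis. Bars under the line are genes and each stem is a peak at its summit. Simple-epithelial keratins and their peaks are in red, and other keratins and theirs in blue. Keratin-associated protein genes and peaks over 10 kb from any keratin gene are in grey. Peaks of chromosome 12 are frequent around KRT80, KRT7 and KRT8. The chromosome 17 cluster has fewer peaks per Mb, 37.1 against 77.8, but includes the 2 highest of any keratin gene, at KRT10 (270) and KRT9 (116).

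**Figure D2:**
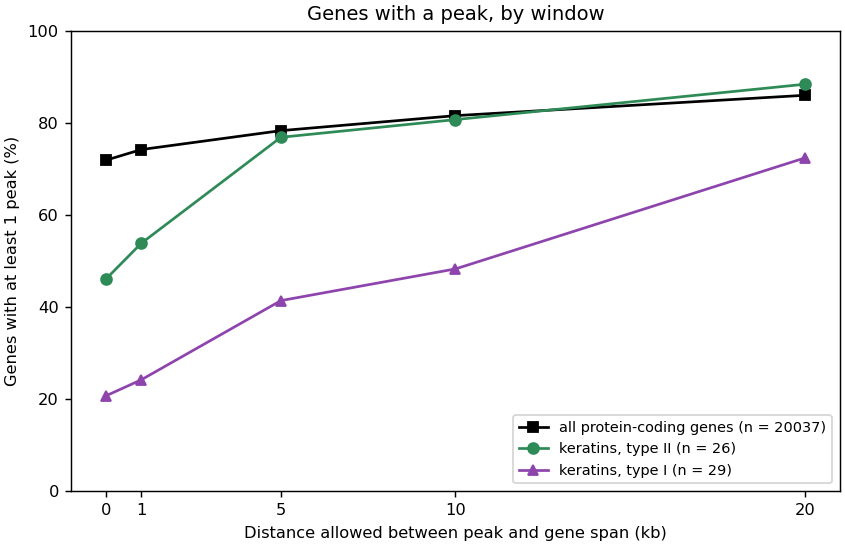
Share of genes with at least 1 peak (y axis, %) by the distance allowed between peak and gene span (x axis, kb), for 26 type II keratin genes, 29 type I keratin genes and 20037 protein-coding genes. Type II genes rise from 46.2% at 0 kb to 80.8% at 10 kb, where 81.6% of all genes have a peak, and type I genes stay below it up to 20 kb, where 72.4% have a peak against 86.1% of all genes.

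Within chromosome 12 the peaks were dense at both ends and sparser between them. From KRT80 to KRT7, 86.9 kb held 14 peaks, or 161 per Mb, with a median fold of 11.2. Over KRT8 and KRT18, 55.7 kb held 9 peaks, or 162 per Mb, with a median fold of 6.70. The median fold over all peaks was 9.63. The 23 genes from KRT86 to KRT78 had 57.5 per Mb. These ends hold KRT7, KRT8 and KRT18, the simple-epithelial keratins of the cluster, but also KRT80, which is not one of them. Within 10 kb, KRT80 had 8 peaks and KRT7 had 4. Other peaks of that end lay inside LINC00592, a lncRNA between KRT80 and KRT7.

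All 4 simple-epithelial keratins, KRT7, KRT8, KRT18 and KRT19, had a peak within 10 kb, and 31 of the 51 other keratins did (60.8%). The share over all protein-coding genes was 81.6%. The highest fold of each ranged from 9.63 to 36.6 with a median of 20.1 in the simple-epithelial keratins, and from 3.94 to 270 with a median of 12.5 in the 31 others. Over all genes with a peak, the median highest fold was 22.3, so by this measure the simple-epithelial keratins were close to the usual level and the other keratins were lower. The peaks themselves were alike, with a median fold of 9.24 over 16 distinct peaks and 9.29 over the 56 of the other keratins. The simple-epithelial keratins had a median span of 13.7 kb against 6.43 kb, and a median of 3 peaks per gene against 1. The part of span and peak number in the highest fold was not tested. A fold of 10 or more was reached by 3 of the 4 genes and by 19 of the 51 others (37.3%), against 65.4% of all genes. A peak overlapped the gene span in 3 of the 4 and in 15 of the 51 (29.4%), against 72.0% of all genes. The 4 genes are too few, and too close together in the case of KRT8 and KRT18, for the difference to be tested.

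KRT8, the type II keratin of simple epithelia, had the longest span of any keratin gene. Over all transcripts it was 52.7 kb, against a median of 6.43 kb for keratins, and reached into KRT18. KRT8 also had the most peaks, 10 within 10 kb and 9 overlapping the span, and the part of span in this number was not tested. The highest, chr12:52910254-52911104, had a fold of 36.6, with 91 fragments at its summit (73.3 to 112, the 95% confidence interval by the exact Poisson method, as for all ranges in parentheses that follow a number of fragments) where the control level was 1.52. It lay inside the gene, 15780 bp downstream of the start in the promoter table. The peak over that start, chr12:52924715-52926555, had a fold of 22.5 from 66 fragments (51.0 to 84.0). Its summit was 1220 bp downstream of the start and outside the sequence shown above. A wide peak of 1966 bp, chr12:52903349-52905314, had a fold of 12.1 and 33 fragments (22.7 to 46.3). The promoter table held only 1 start for KRT8, so peaks at starts of other transcripts inside the span could not be identified.

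KRT18, the partner of KRT8, shared its main peak with it. This peak, chr12:52948548-52950329, covered the lower end of KRT18 and the outermost start of KRT8, 46 bp from its summit. Its fold was 25.7, with 94 fragments (76.0 to 115) over a control of 2.70. The only other peak within 10 kb of KRT18 had a fold of 5.95 and 17 fragments. Since the outer transcripts of KRT8 and KRT18 overlap here, the peak cannot be given to either gene alone.

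KRT7, a type II keratin of glandular and ductal epithelium, had 4 peaks of similar fold. Of these, 3 lay inside the gene, with folds from 11.2 to 14.5, and the one at the lower flank had a fold of 8.85. The highest, chr12:52243979-52244760, was 11092 bp above the lower end of the gene and 708 bp from KRT7-AS, a lncRNA, and had 62 fragments (47.5 to 79.5) against 3.34. The peak closest to the lower end was 1572 bp inside it and had 28 fragments (18.6 to 40.5). The intervals of these 2 pileups did not overlap, and the control level was 3.34 at the former and 1.59 at the latter.

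KRT19, the smallest keratin and a type I keratin of simple epithelia, stood apart from KRT7, KRT8 and KRT18 in that no peak overlapped it. Within 10 kb there were 2 peaks. The nearer one, 1.66 kb below the gene, had a fold of 4.30 and 12 fragments (6.20 to 21.0), and the higher one, chr17:41533010-41533580, was 5036 bp above the gene by its summit with a fold of 9.63 and 21 fragments (13.0 to 32.1). With each control level taken as fixed, the interval of this fold was 6.13 to 14.5, which lay below those of KRT8 (29.5 to 44.8) and KRT18 (20.8 to 31.4) and overlapped that of KRT7 (11.2 to 18.6).

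**Figure D3:**
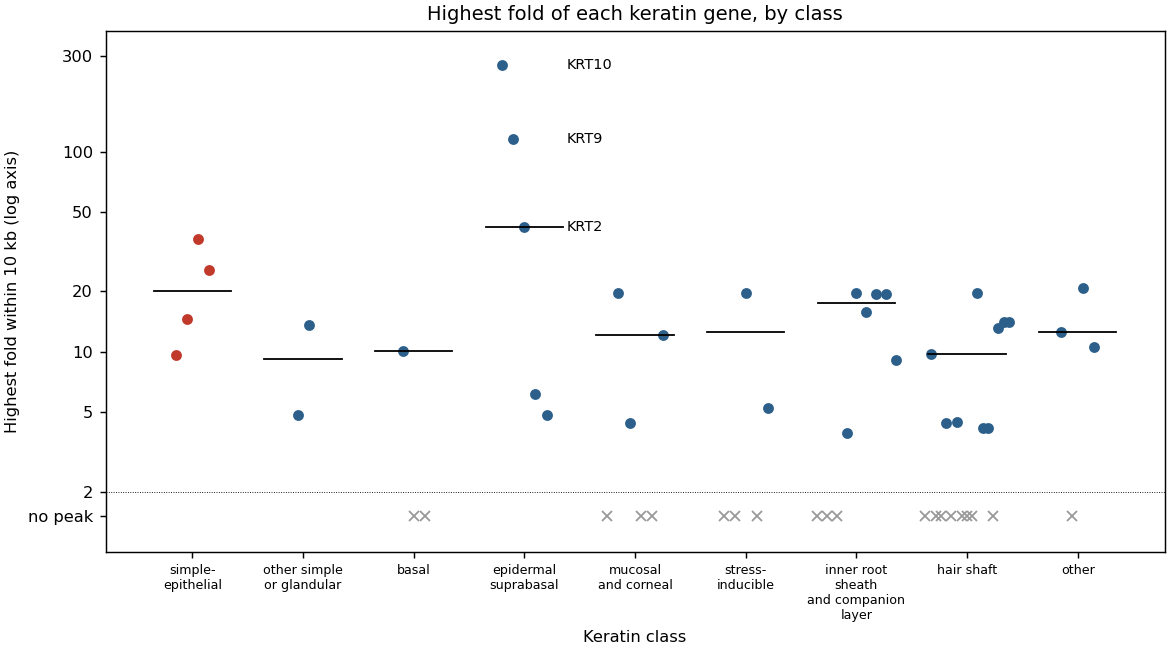
Highest fold within 10 kb of each keratin gene (logarithmic y axis) by keratin class (x axis), with 1 point per gene, a cross for a gene with no peak and a line at the median of the genes with a peak. The simple-epithelial keratins lie between 9.63 and 36.6, and KRT10 and KRT9 stand above all others at 270 and 116.

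The 2 keratin genes with the highest peaks were epidermal ones. KRT10, the type I partner of KRT1, had a single peak within 10 kb, chr17:40818578-40819439, with a fold of 270, a −log10 q of 1380 and 615 fragments (567 to 666) over a control of 1.28. It ranked 3 by fold among all 54389 peaks. Its summit lay inside KRT10, 3623 bp downstream of the KRT10 start and 874 bp from the other end of the gene, and 154 bp upstream of the start of KRT10-AS1, in the repeat array shown above. KRT9, the keratin of palms and soles, also had a single peak, chr17:41567069-41568063, with a fold of 116 and 264 fragments (233 to 298) against 1.28. This peak ranked 292 by fold and lay inside KRT9, 4558 bp downstream of its start and 1665 bp from its other end. A fold of 100 or more within 10 kb, a limit set after the values were seen, was found for 2 keratin genes (3.64%), against 1.59% of all protein-coding genes. The control level at both peaks was the lowest in the list. How the aligner treated reads from the KRT10 repeat is not given in the sources used here, and its part in the height of the peak was not tested.

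KRT2, a keratin of the upper epidermis, came next with a fold of 41.9 in a peak whose summit was 2347 bp outside the gene at its 3′ side, chr12:52641828-52642538, with 98 fragments (79.6 to 119) against 1.37. A further peak inside KRT2, 665 bp from the end opposite its start, had a fold of 21.6 and 57 fragments (43.2 to 73.9). In KRT10, KRT9 and KRT2 the high peaks were therefore nearer to the 3′ end than to the start. KRT1, in the same class, had no peak over its span, and its highest fold was 6.13. KRT77, expressed in sweat gland ducts, reached 4.82.

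**Figure D4:**
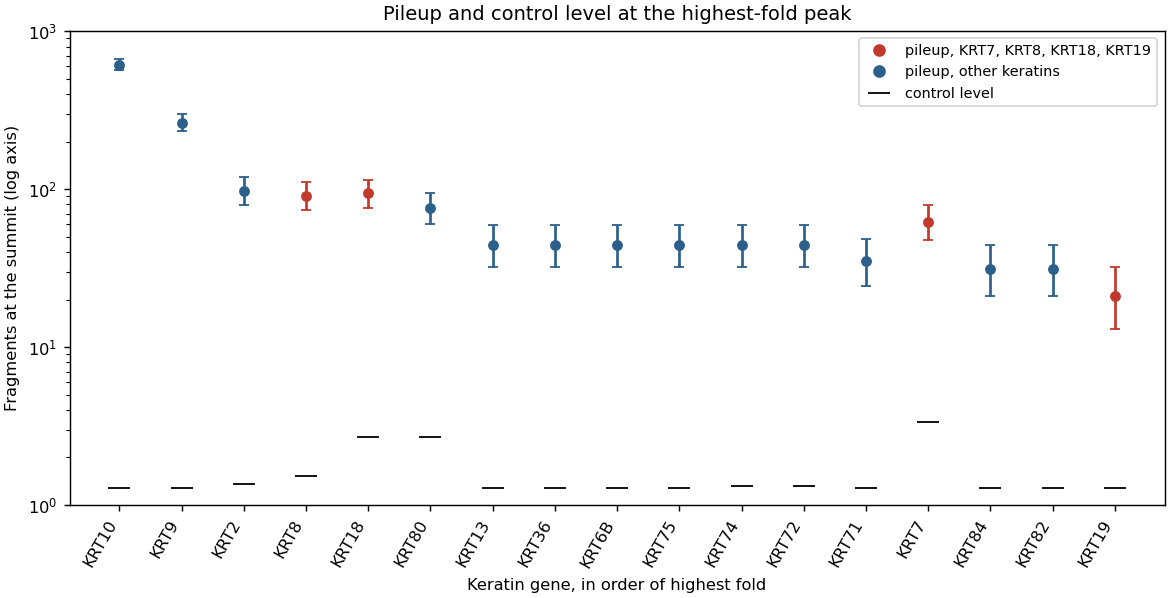
Fragments at the summit of the highest-fold peak (points, with exact Poisson 95% confidence intervals) and the control level there (dashes), on a logarithmic y axis, for the 4 simple-epithelial keratins and the other keratins with the highest fold, in order of fold on the x axis. The pileups of KRT10 (615) and KRT9 (264) exceed all others beyond their intervals, and those of KRT2, KRT8 and KRT18 overlap.

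Among the remaining classes, the folds were moderate. KRT80, a type II keratin of differentiating epithelia, had 8 peaks, of which the highest had a fold of 20.8 and 76 fragments (59.9 to 95.1) and lay inside the gene. KRT75 and KRT6B, a keratin of the hair companion layer and a stress-inducible one, shared a peak of fold 19.7 that lies between them. KRT13, a mucosal keratin, and KRT36, a hair keratin, shared another of fold 19.7. KRT72 and KRT74, both of the inner root sheath, shared a peak of fold 19.3, and KRT71 had one of 15.8. KRT82 and KRT84, both hair keratins, shared one of 14.0. Most of these high values thus came from peaks between genes.

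By class, a peak within 10 kb was found for 5 of 5 epidermal suprabasal keratins, 2 of 2 other simple or glandular keratins (KRT20 with a fold of 4.82 and KRT23 with 13.6), 6 of 9 keratins of the inner root sheath and companion layer, 9 of 17 hair shaft keratins, 3 of 6 mucosal and corneal keratins, 2 of 5 stress-inducible keratins, 1 of 3 basal keratins and 3 of 4 keratins outside these classes, namely KRT79, KRT80 and KRT222. Over all protein-coding genes the share was 81.6%, and among those that span 3 to 15 kb it was 75.5%. Most of the classes hold few genes, and differences between them were not tested. The peak of KRT222, with a fold of 12.5, lay 304 bp from the start of SMARCE1, a chromatin remodelling gene. The hair shaft keratins with a peak had a median highest fold of 9.79. The basal pair KRT5 and KRT14 had no peak within 10 kb, and KRT15, the basal keratin that did, had 26 fragments at its highest peak.

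The 20 keratin genes without a peak within 10 kb comprised 5 type II genes, KRT3, KRT4, KRT5, KRT6C and KRT83, and 15 type I genes, KRT12, KRT14, KRT16, KRT17, KRT24 to KRT27, KRT31, KRT32, KRT33A, KRT33B, KRT35, KRT38 and KRT39. Their nearest peak was 10.4 to 49.5 kb away, with a median of 21.2 kb. The closest to the limit were KRT20 inside it, at 9.92 kb from a peak of fold 4.82, and KRT33B outside it, at 10.4 kb from a peak of fold 4.38. There were 9 stretches of over 50 kb without any peak that wholly contained keratin genes, 27 of the 55 (49.1%) in all, against 20.6% of all protein-coding genes. Among genes that span 3 to 15 kb, the shares were 54.2% for keratins and 26.5% for all. The 50 kb limit was set after the values were seen, and neighbouring genes share a stretch. The longest, 155.1 kb on chromosome 17, ran over KRT222 and KRT24 to KRT28, and another of 70.7 kb ran over KRT14, KRT16 and KRT17. Some of these genes have close copies (KRT6A, KRT6B and KRT6C, KRT33A and KRT33B, KRT14, KRT16 and KRT17), and whether reads that fit several copies were kept is not given in the sources used here, so the part of this in the missing peaks was not tested.

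The 34 keratin-associated protein genes that lie inside the type I cluster encode hair matrix proteins and are not keratins. No peak overlapped any of them, against 72.0% of all protein-coding genes, but their median span was only 0.94 kb against 24.1 kb. Their block of 322.3 kb held 14 peaks, or 43.4 per Mb, against 33.1 per Mb for chromosome 17. Of these 14 peaks, 8 had a fold of 10 or more, as did 48.5% of all peaks. A peak was within 10 kb of 16 of the 34 (47.1%), against 81.6% of all protein-coding genes. For KRTAP3-3 that peak lay outside the block. The highest, with a fold of 137 and 311 fragments (277 to 348), was 6674 bp from KRTAP4-7, and the next, with a fold of 81.0 and 244 fragments (214 to 277), was 763 bp from KRTAP4-5. The latter was also the highest within 10 kb of KRTAP4-6. KRTAP9-4, KRTAP9-6, KRTAP9-7, KRTAP9-8 and KRTAP9-9 tied at 24.5. From the summits of the 2 highest peaks, the nearest start in the promoter table was 7163 bp and 1974 bp away.

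Genes for other intermediate filament proteins, and for proteins that anchor or bind keratin filaments, lay outside the keratin clusters and had peaks more often than keratin genes. Their median spans were also longer, 13.2 kb and 45.0 kb respectively, against 6.43 kb for keratins. The part of span in this difference was not tested. All 17 intermediate filament genes outside the keratins, such as VIM and the lamin genes, had a peak within 10 kb, with a median highest fold of 25.3. Of these, 15 (88.2%) reached a fold of 10, against 65.4% of all protein-coding genes. The highest folds were 69.2 at GFAP, 55.4 at BFSP2, 42.9 at NES, 40.2 at IFFO1 and 36.7 at NEFM. VIM, the intermediate filament of mesenchymal cells, had 1 peak of fold 16.7 and 50 fragments. Of 15 genes for proteins that anchor or bind keratin filaments, 14 had a peak, with a median highest fold of 21.0. The highest were 64.3 at TCHP, which binds keratin filaments, 50.1 at PLEC, which encodes plectin, 36.4 at DSP, which encodes desmoplakin, 34.6 at DSG2 and 23.2 at DST, while EPPK1 had no peak. Over all protein-coding genes the median was 22.3 with 81.6% of genes having a peak, so both lists were near the usual fold and the keratins, at 13.1 over the 35 genes with a peak, were below it.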

How the data were processed

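One anti-Flag IP library and 1 input library of A549-shETV4 cells with Flag-ETV4 made up the series. The submitters' processing notes name Bowtie2 2.4.1, SAMtools, MACS2 2.2.7.1, deepTools 3.5.0 and hg38; parameters and duplicate handling are not given in the sources used here. The authors deposited 1 narrowPeak list, called on 1 library, with fold over control as a ratio, −log10 p and −log10 q at the summit, and a display score, which was not used. The lowest −log10 q was 1.30.

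Positions are 1-based. Gene spans and promoter windows were from RefSeq (GRCh38.p14). The pileup n and control level c were solved from fold = (n + 1)/(c + 1) and the Poisson p. Pileups differed from whole numbers by at most 0.00914. The solution was tested on simulated data. The control level has a floor of 1.28, and the pileup of single peaks (5th percentile 9) limits their precision; the intervals cover counting error only. The members and lists were chosen with earlier results of these data known. Values are given in full for KRT7, KRT8, KRT18, KRT19 and the 12 other keratins with the highest fold (ties kept), and related lists by their 5 highest. No test was made, as there was 1 library. Alternatives covered the window, thresholds on fold and q, summits, assignment to the nearest gene and KRT222. Scripts used scipy 1.17.1, pandas 2.3.3 and numpy 2.4.6 under Python 3.11.15, with figures by matplotlib 3.10.9.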

Additional observations from a re-analysis of the deposited data

How the results depend on the processing

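With 1 library, no replicate could be left out. No paired analysis was possible because there was 1 IP library and the input had no peak list of its own. The window decided most counts. With peaks required to overlap the span, 18 keratin genes had a peak, of which 15 were not simple-epithelial, from 36 peaks, and the median highest fold was 25.7 for the simple-epithelial keratins and 9.11 for the others. At 1 kb these values were 21 genes, 18, 42 peaks, 25.7 and 9.45. At 5 kb the median of the others was 12.7, and at 20 kb the medians were 28.6 and 13.4. A fold of at least 10 left 22 genes, 19 others and 33 peaks, with medians of 25.7 and 19.3. A fold of at least 5 gave a median of 14.0 for the others, and a −log10 q of at least 10 gave 15.8 and left 42 peaks. The median of the others was 12.8 with summits, 11.4 with each peak given to the nearest protein-coding gene only, and 12.7 without KRT222. The simple-epithelial median was above that of the others under each of these settings. Keratin genes with a peak near their start numbered 7 at 2 kb, 9 at 3 kb, 2 at a fold of at least 5 or 10 or a −log10 q of at least 10, and 9 when either end of the span was used. The other 37 values stayed within 1.5 times the count or equal to 3 digits. Peaks with pileups of 7 to 9 fragments, as at KRT74 and KRT40, are the least certain.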

Other observations

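Several peaks of the keratin clusters were over 10 kb from any keratin gene, and the following were named after their values were seen. In the gap between KRT80 and KRT7 on chromosome 12, LINC00592, a lncRNA, held a peak of fold 31.6 with 84 fragments (67.0 to 104, exact Poisson interval at 95%) over a control of 1.69, higher in fold than any peak of KRT80 or KRT7. Further along, the pseudogene LOC400036 held one of fold 34.2 with 77 fragments (60.8 to 96.2) against 1.28, and the peak began at the same base as the pseudogene. On chromosome 17, a peak of fold 17.5 with 46 fragments lay inside LOC105371777, a lncRNA that overlaps KRT12 and KRT20, and a peak 1657 bp wide with a fold of 13.1 ended close to LINC00974, between KRT19 and KRT9.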
